A study of Mus musculus with 12 samples.

Results

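The MYC network was followed through 10 genes, *Myc*, *Max*, *Mxd1*, *Mxd3*, *Mxd4*, *Mxi1*, *Mnt*, *Mga*, *Mlx* and *Mlxip*, chosen by name with earlier results of these data known. All 10 were found among the 15651 genes of the expression table, and all 10 passed the filter on low values in every comparison. RNA-seq was performed on c-Kit+ enriched leukemic spleen cells from moribund mice with acute myeloid leukemia (AML). *D/F* AML carries Dnmt3a fl/fl, Flt3 ITD/ITD and Mx1Cre, and *T/F* AML carries Tet2 fl/fl, Flt3 ITD/ITD and Mx1Cre. Dnmt3a is a DNA methyltransferase, Tet2 oxidises methylated cytosine, and the *Flt3* internal tandem duplication, on both alleles of all mice, keeps that receptor active. The floxed alleles were deleted by leaky *Mx1-Cre*, which is driven by an interferon-responsive promoter, without induction, so deletion need not be complete in every cell. The cells of 3 mice per genotype were each split between DMSO, the solvent, and CCS1477, which binds the bromodomains of the acetyltransferases p300 and CBP, for 6 hours in medium with SCF, IL-6 and IL-3. The dose was 4 µM in *D/F* cells and 2 µM in *T/F*, so genotype and dose cannot be told apart. The 12 libraries form 4 groups of 3, and no library of untreated wild-type cells was analysed here.

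MYC is a transcription factor that binds DNA only as a pair with MAX, at the E-box sequence CACGTG, and activates genes for growth, ribosome assembly and metabolism. MAX also pairs with the MXD proteins, MXI1, MNT and MGA, which bind the same sequence and recruit corepressors, so that the outcome at a shared site depends on which partner occupies MAX. MLX is a MAX-like protein that pairs with MLXIP (also called MondoA), a sensor of glucose metabolites, and with some MXD proteins. In blood progenitors, *Myc* accompanies proliferation, and MXD genes other than *Mxd3* are known to rise with cell cycle exit and differentiation. RNA levels are given here as TPM, a length-normalized share scaled to the same total in each library, so TPM can be compared between genes, and no protein was measured in these libraries.

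The libraries held in part the markers of the labelled cells. Among 9 genes that mark c-Kit+ leukemia and progenitor cells, *Kit* lay between 22.8 and 149 TPM, *Mpo* was abundant, and *Ptprc*, which encodes the blood cell antigen CD45, was only 0.826 to 3.11 TPM. *Dnmt3a* in *D/F* DMSO cells lay between 29.3 and 55.7 TPM against 39.9 to 53.9 in *T/F*, so its TPM did not separate the genotypes. *Tet2* in *T/F* DMSO cells lay between 30.0 and 35.8 TPM, below the 38.3 to 43.4 of *D/F*. The paper shows the floxed stretch of *Tet2* as only part of the gene, and deletion was leaky. TPM of a whole gene therefore cannot settle whether an allele was deleted, and these values do not test the genotype labels. *D/F* mouse 2 stood apart from the other *D/F* mice, with 212 TPM summed over 4 megakaryocyte genes in DMSO against 34.9 and 50.3, and with 2720 TPM over 8 neutrophil genes against 9446 and 6303. In DMSO this mouse had the highest value of the 3 *D/F* libraries for 5 of the 10 network genes and the lowest for the other 5. The summed TPM of the 9 progenitor markers was 2836 to 6843 in *D/F* DMSO and 736 to 2908 in *D/F* CCS1477, and 2555 to 3815 and 1129 to 1908 in *T/F*. *Mpo* and *Elane* made up most of this sum in every library. *D/F* mouse 2 had the lowest *D/F* sum in DMSO but the highest *Kit* (149 against 50.5 and 60.9 TPM) and *Cd34* (447 against 110 and 138). With CCS1477, *Ptprc* was higher in every *D/F* mouse and lower in every *T/F* mouse, and the other markers of this list were lower in every mouse. The summed macrophage genes (5 of 7 measured) lay between 19.7 and 37.3 TPM in all DMSO libraries and between 2.84 and 12.8 TPM in all CCS1477 libraries, those of T and NK cells (5 of 8) between 81.3 and 177 and between 29.0 and 40.7, and those of stroma and endothelium (2 of 6) between 57.8 and 161 and between 16.8 and 27.8. Most of the T and NK sum in DMSO was *Nkg7*, at 65.5 to 159 TPM against 5.49 to 26.9 with CCS1477. *Cd3d*, *Cd4*, *Cd8a* and *Klrb1c* were at most 14.9 TPM in any library. *Pecam1*, at 15.1 to 149 TPM, made up most of the stroma and endothelium sum in every library, so these sums rest largely on single genes. The part of these sums in the results was not tested. In these bulk samples, fewer cells of a type and less RNA per cell cannot be told apart.

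With DMSO, *Myc* was the most abundant of the 10 genes in both genotypes, and with CCS1477 it was the least abundant in *D/F* and eighth in *T/F*. In DMSO the mean of *Myc* was 378 TPM in *D/F* cells and 268 TPM in *T/F*, and its libraries lay above all those of the next gene, *Mga* (121 and 102 TPM). *Max* (105 and 99.8 TPM) followed, with a range that overlapped that of *Mga* in both genotypes. *Mlx*, at 81.6 and 85.4 TPM, came after *Max*, and the 6 remaining genes had means from 10.1 to 42.2 TPM. With CCS1477 the highest gene was *Mga*, at 117 TPM in *D/F* cells and 99.6 TPM in *T/F*, apart from *Mlx* at 61.6 and 66.4 TPM. *Mlx* and *Max* overlapped. The range of *Myc* then overlapped those of *Mxd3* and, barely, *Mxd4* in *D/F*, and those of *Mnt*, *Mxd4* and *Mxi1* in *T/F*. It lay wholly below *Mxd1* in both genotypes, below *Mxi1* in *D/F* and below *Mxd3* in *T/F*.

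**Figure D1:**
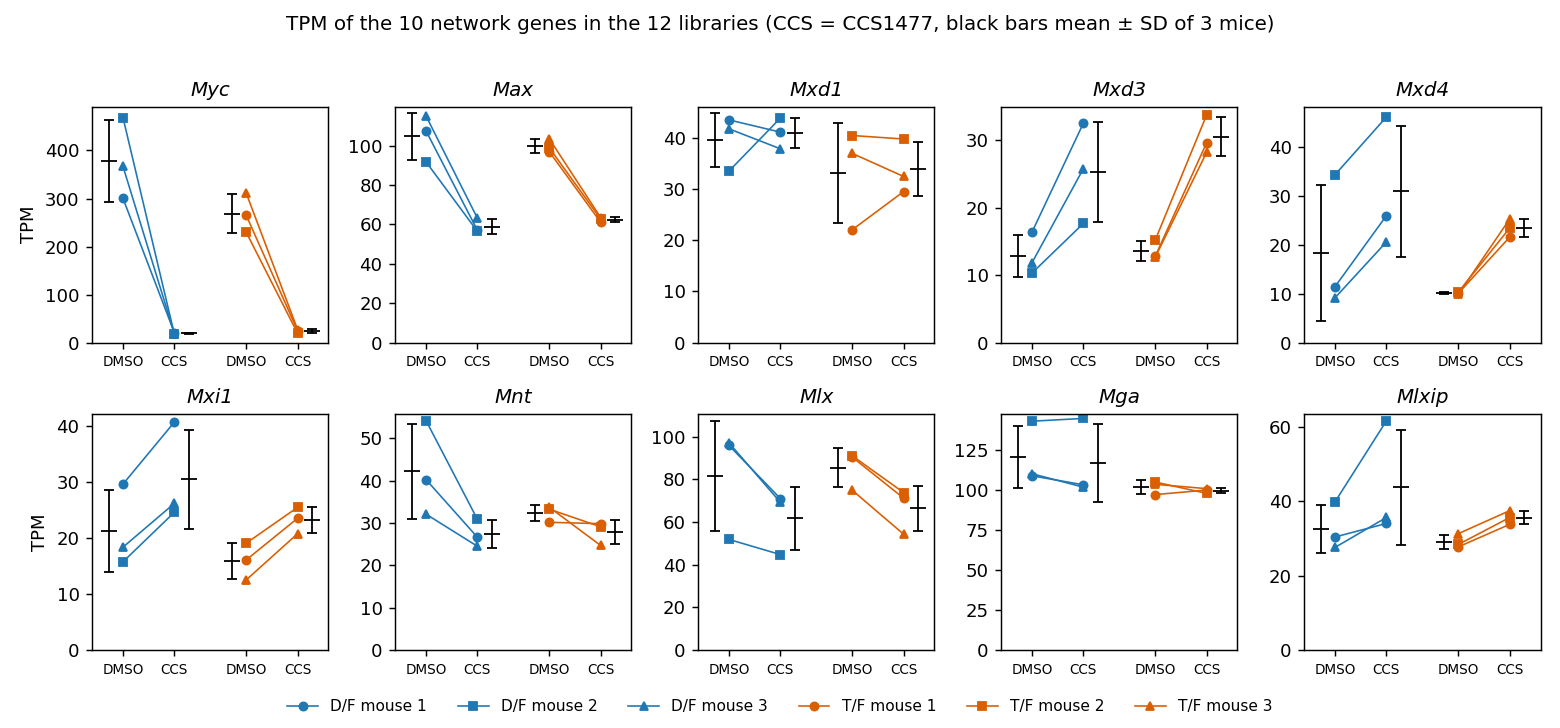
TPM (y axis, linear, from 0) of each of the 10 network genes in DMSO and CCS1477 cells, with a line joining the libraries of 1 mouse, *D/F* in blue and *T/F* in orange, and black bars at the mean ± SD of 3 mice. *Myc* falls in all 6 mice to between 17.8 and 27.1 TPM, *Max* falls in all 6, *Mxd3*, *Mxd4*, *Mxi1* and *Mlxip* rise in all 6, and *Mxd1* and *Mga* go both ways.

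*Myc* (chromosome 15 from 61985391 to 61990374 in GRCm38) was lower with CCS1477 in all 6 mice. In *D/F* the DMSO cells of mice 1, 2 and 3 held 300.3, 468 and 367 TPM and the CCS1477 cells 20.7, 17.8 and 19.0 TPM. In *T/F* the values were 265, 229.5 and 311 TPM with DMSO and 24.9, 19.3 and 27.1 TPM with CCS1477. The mouse with the highest *D/F* value in DMSO had the lowest in CCS1477, and no treated library came near an untreated one. The log2 change of (TPM + 1) was -4.21 in *D/F* (95% interval -4.69 to -3.73, limma adjusted p = 0.00131) and -3.45 in *T/F* (-3.85 to -3.04, adjusted p = 0.000311 from limma). Here a gene is called where its p, adjusted across the whole table, is under 0.05. The *D/F* call was lost when mouse 1 or mouse 3 was left out (adjusted p = 0.0771 and 0.173 from limma), fits in which no gene at all was called, and the change then was -4.42 and -4.22.

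*Max* (chromosome 12 from 76937269 to 76962201), the shared partner of the network, fell by less than *Myc*. Its *D/F* values were 108, 91.8 and 115 TPM with DMSO and 57.1, 56.5 and 63.2 TPM with CCS1477. In *T/F* they were 97.0, 98.9 and 104 TPM with DMSO and 61.1, 62.8 and 63.5 TPM with CCS1477. No treated library reached an untreated one, and in each mouse between 0.531 and 0.635 of the DMSO level remained. The log2 change was -0.82 in *D/F* (95% interval -1.19 to -0.44, limma adjusted p = 0.0259) and -0.67 in *T/F* (-0.81 to -0.52, adjusted p = 0.000845 from limma). As with *Myc*, the *D/F* call was lost without mouse 1 or mouse 3 (adjusted p = 0.277 and 0.2795 from limma).

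The ratio of *Myc* to *Max* TPM moved from above 2 to below 1 in every mouse. In *D/F* it was 2.79, 5.10 and 3.19 with DMSO and 0.363, 0.314 and 0.301 with CCS1477. In *T/F* it was 2.73, 2.32 and 3.00 with DMSO and 0.407, 0.308 and 0.427 with CCS1477. Exchanging treatments within genotypes gave a two-sided exact permutation p of 0.005 over both genotypes, the smallest that 400 rearrangements can give, and 0.1 within either genotype, which is the smallest for 3 against 3. That exchange ignores that each mouse gave both libraries. The sign-flip test over 6 mice, which keeps the libraries of a mouse paired, gave an exact p of 0.03125, also the smallest possible.

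Among *Mxd1*, *Mxd3*, *Mxd4* and *Mxi1*, whose proteins recruit the SIN3 corepressor, all but *Mxd1* were higher with CCS1477 in all 6 mice. *Mnt*, whose protein also acts through SIN3, was lower in all 6. *Mxd3* (chromosome 13 from 55325168 to 55329823), which is known for expression in dividing cells, was 16.4, 10.3 and 11.9 TPM with DMSO and 32.5, 17.7 and 25.8 TPM with CCS1477 in *D/F*. *T/F* cells held 12.8, 15.2 and 12.7 TPM with DMSO and 29.6, 33.8 and 28.2 TPM with CCS1477. The groups did not overlap, and the ratio within a mouse lay between 1.71 and 2.31. The change passed the test in *T/F* (log2 change 1.11, 95% interval 0.86 to 1.37, adjusted p = 0.000961 from limma). In *D/F* the log2 change of 0.91 (0.25 to 1.57) had an adjusted p of 0.0800 from limma, and of 0.00870 with the mouse as a block, a fit that compares the treated and untreated cells of the same animal, and it passed without *D/F* mouse 2 (0.0404). *Mxd3* shares 105 of its 2369 exonic bases with *Prelid1* on the opposite strand, a gene at 245 to 561 TPM, and the strand setting of the quantification is not given in the sources used here. *Prelid1* itself had log2 changes of 0.04 in *D/F* (limma adjusted p = 0.958) and 0.16 in *T/F* (adjusted p = 0.262).

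*Mxd4* (chromosome 5 from 34173883 to 34187720), a member linked to differentiation and cell cycle exit, was 11.5, 34.4 and 9.19 TPM with DMSO and 26.0, 46.2 and 20.6 TPM with CCS1477 in *D/F*. Mouse 2 had the highest value under both treatments, and its DMSO value lay above the CCS1477 values of the other mice. In *T/F* the values were close together, at 10.1, 10.4 and 9.89 TPM with DMSO and 21.6, 23.4 and 25.3 TPM with CCS1477. The log2 change was 1.14 in *T/F* (95% interval 0.95 to 1.32, adjusted p = 0.000461 from limma). In *D/F* it was 0.87 (-0.40 to 2.14, adjusted p = 0.317 from limma), against an adjusted p of 0.0255 with the mouse as a block. Without *D/F* mouse 2 the *D/F* change was 1.10 (adjusted p = 0.0267 from limma). In a fit of all 4 groups with a shared spread the *T/F* call was lost (adjusted p = 0.0714), and over both genotypes the change of 1.00 (adjusted p = 0.0130) lost its call without *T/F* mouse 3 (0.0518).

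*Mxi1* (chromosome 19 from 53310518 to 53375810), which antagonises MYC through SIN3, was higher by a smaller ratio. Its *D/F* values were 29.6, 15.8 and 18.4 TPM with DMSO and 40.7, 24.6 and 26.2 TPM with CCS1477, and these groups overlapped because mouse 1 was high under both treatments. *T/F* cells held 16.1, 19.1 and 12.5 TPM with DMSO and 23.5, 25.5 and 20.8 TPM with CCS1477, without overlap. The ratio within a mouse lay between 1.34 and 1.66. The log2 change was 0.54 in *T/F* (adjusted p = 0.0402 from limma) and 0.51 in *D/F* (adjusted p = 0.298, and 0.0178 under the block). The *T/F* call was lost when any 1 of the 3 mice was left out (adjusted p from 0.0514 to 0.177 from limma) and when libraries were rescaled to their median gene (adjusted p = 0.0995), quantile normalized (0.0925) or fitted with a shared spread (0.157). The change over both genotypes was 0.53 (limma adjusted p = 0.0270), and 6 of 14 alternatives lost this call (adjusted p up to 0.0907). *Gm10197*, on the opposite strand, shares 194 of its 6823 exonic bases, and had log2 changes of 0.47 in *D/F* (adjusted p = 0.434) and -0.21 in *T/F* (0.761).

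*Mxd1* (chromosome 6 from 86647042 to 86669161), the family member best known from myeloid differentiation, was 43.5, 33.5 and 41.8 TPM with DMSO and 41.1, 43.9 and 37.9 TPM with CCS1477 in *D/F*. *T/F* cells held 22.1, 40.5 and 37.0 TPM with DMSO and 29.5, 39.8 and 32.5 TPM with CCS1477. It was higher in 2 mice and lower in 4, and the groups overlapped in both genotypes. The 95% interval of its log2 change ran from -0.34 to 0.45 in *D/F* and from -0.54 to 0.67 in *T/F*.

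The larger MAX partners, MNT and MGA, were not called higher in either genotype. *Mnt* (chromosome 11 from 74830920 to 74845725), a widely expressed MYC antagonist, was 40.3, 54.2 and 32.1 TPM with DMSO and 26.6, 30.9 and 24.5 TPM with CCS1477 in *D/F*. In *T/F* it was 30.2, 33.3 and 33.7 TPM with DMSO and 29.8, 29.1 and 24.7 TPM with CCS1477. All 6 mice were lower and neither genotype overlapped, but in *T/F* the lowest DMSO library exceeded the highest CCS1477 library by less than 1 TPM. The log2 change did not pass in *D/F* (-0.58, adjusted p = 0.141 from limma, and 0.0247 with the mouse as a block) or in *T/F* (-0.21, adjusted p = 0.124), and it passed over both genotypes (-0.40, adjusted p = 0.0273). Over both genotypes the call was lost without *D/F* mouse 1 (adjusted p = 0.0898), *T/F* mouse 2 (0.0510) or *T/F* mouse 3 (0.0803).

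*Mga* (chromosome 2 from 119897228 to 119969581) encodes a very large protein that pairs with MAX inside a variant Polycomb complex. In *D/F* it was 109, 143 and 110.2 TPM with DMSO and 103, 145 and 102 TPM with CCS1477. *T/F* cells held 97.2, 105 and 104 TPM with DMSO and 100.03, 97.9 and 100.9 TPM with CCS1477. The 95% interval of its log2 change ran from -0.56 to 0.44 in *D/F* and from -0.18 to 0.12 in *T/F*. In *T/F* a fall beyond 0.18 or a rise beyond 0.12 on the log2 scale lay outside this interval.

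*Mlx* and *Mlxip*, the arm of the network that responds to glucose metabolites, went opposite ways in every mouse. *Mlx* (chromosome 11 from 101087277 to 101092207) was 95.9, 51.8 and 97.1 TPM with DMSO and 71.0, 44.7 and 69.2 TPM with CCS1477 in *D/F*, and 90.4, 91.0 and 74.8 against 71.2, 73.8 and 54.3 TPM in *T/F*. Every mouse was lower, with ratios from 0.713 to 0.863, and the *D/F* groups overlapped through mouse 2. The log2 change was -0.37 in both genotypes, with adjusted p of 0.468 and 0.0925 by limma in *D/F* and *T/F* cells, and of 0.0483 and 0.0111 with the mouse as a block. It passed in *D/F* without mouse 2 (adjusted p = 0.0456) and in *T/F* without mouse 3 (0.0396). The log2 change over both genotypes was -0.37 (limma adjusted p = 0.109, and 0.000875 with the mouse as a block). *Psmc3ip*, on the opposite strand, shares 385 of the 1999 exonic bases of *Mlx*, and its log2 changes were -0.54 in *D/F* (limma adjusted p = 0.140) and -0.43 in *T/F* (adjusted p = 0.0467).

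*Mlxip* (chromosome 5 from 123394798 to 123457932) was 30.4, 39.9 and 27.6 TPM with DMSO and 34.04, 61.6 and 35.6 TPM with CCS1477 in *D/F*. *T/F* cells held 27.7, 28.4 and 31.3 TPM with DMSO and 33.8, 35.6 and 37.5 TPM with CCS1477. All mice were higher, by 1.12 to 1.55 times, and the groups overlapped in *D/F* only. The change passed in *T/F* (log2 change 0.28, adjusted p = 0.0284 from limma) but not for *D/F* (0.38, adjusted p = 0.403), and the *T/F* call was lost when any 1 of the 3 mice was left out (adjusted p from 0.0512 to 0.179) and in the fit with a shared spread (0.376). *Gm15747*, on the opposite strand, shares 267 of its 8326 exonic bases, and had log2 changes of 0.44 in *D/F* (adjusted p = 0.576) and 0.30 in *T/F* (0.127). Over both genotypes the log2 change was 0.33 (adjusted p = 0.0825, 0.00406 with the mouse as a block, and 0.00308 without *D/F* mouse 2).

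**Figure D2:**
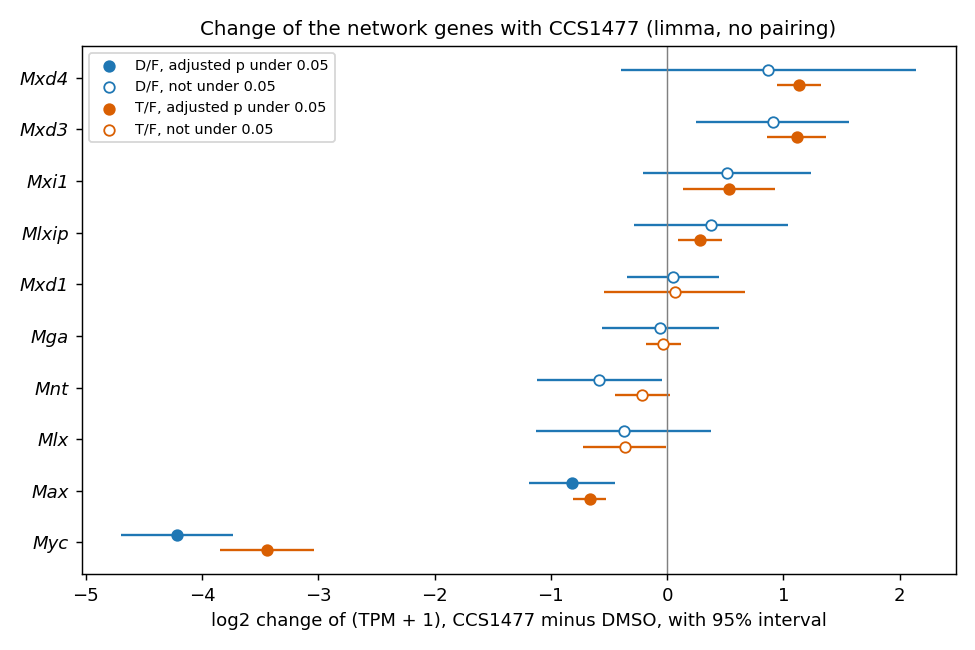
Log2 change of (TPM + 1) from DMSO to CCS1477 (x axis) for each network gene, *D/F* in blue and *T/F* in orange, with the 95% interval of the limma fit without pairing; filled points have an adjusted p under 0.05. *Myc* lies apart at -4.21 and -3.45, *Mxd3* and *Mxd4* lie near 1, and the *D/F* intervals are wider than those of *T/F* for all but *Mxd1*.

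In *D/F*, 2 of the 10 genes were called, both lower (*Myc* and *Max*), where 11.6% of all genes tested were called. In *T/F*, 6 were called (4 higher, 2 lower) against 43.4% of all genes. Over both genotypes 6 were called against 45.3%, of which 3 were higher and 3 lower, where 25.8% and 19.6% of all genes were. With the mouse as a block, 7 genes were called in *D/F* against 39.3% of all genes, 7 in *T/F* against 54.1% and 8 over both genotypes against 60.3%. The treated and untreated groups did not overlap for 4 of the 10 genes in *D/F*, against 36.6% of all genes, and for 8 in *T/F*, against 56.1%. The median log2 change of the 10 genes was -0.0018 in *D/F* cells and 0.02 in *T/F*, beside 0.06 and 0.07 for all genes tested.

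The make-up of the MAX partner transcripts changed through the loss of *Myc* more than through the gain of the others. *Myc* made up 54.5, 61.7 and 62.1% of the summed TPM of *Myc*, *Mxd1*, *Mxd3*, *Mxd4*, *Mxi1*, *Mnt* and *Mga* in *D/F* DMSO cells, and 7.11, 5.45 and 7.43% in CCS1477 cells. In *T/F* its share was 58.4, 50.7 and 59.8% with DMSO and 9.61, 7.19 and 10.4% with CCS1477. *Mga* then took the largest share, 39.9% ± 4.47 in *D/F* cells and 38.0% ± 1.35 in *T/F* (SD, n = 3), from 19.1% ± 0.603 and 21.5% ± 1.64 with DMSO. The summed TPM of the 6 partners other than *Myc* was 255 ± 34.1 with DMSO and 272 ± 35.6 with CCS1477 in *D/F* cells and 207 ± 17.6 and 239 ± 9.42 in *T/F* (SD, n = 3). It was higher with CCS1477 in all 6 mice, by a mean of 16.8 TPM in *D/F* mice and 31.6 TPM in *T/F* mice. These means became 7.89 and 19.6 TPM when libraries were rescaled to their median gene, and *D/F* mouse 3 was then lower with CCS1477 (238 against 246 TPM). For *Mxd1*, *Mxd3*, *Mxd4* and *Mxi1* alone the sum was 92.1 ± 10.04 and 128 ± 15.5 TPM in *D/F* cells and 72.8 ± 12.05 and 111 ± 9.86 TPM in *T/F* (SD, n = 3). The sum of all 7 partners went from 633 ± 111 to 291 ± 35.0 TPM in *D/F* cells and from 476 ± 38.9 to 262 ± 5.53 TPM in *T/F* (SD, n = 3). Per unit of *Max* it was 5.12, 8.27 and 5.13 with DMSO and 5.10, 5.76 and 4.05 with CCS1477 in *D/F* mice 1, 2 and 3, so mouse 1 hardly differed and mouse 2 differed most. For *T/F* it was 4.76 ± 0.236 and 4.20 ± 0.103 (SD, n = 3).

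**Figure D3:**
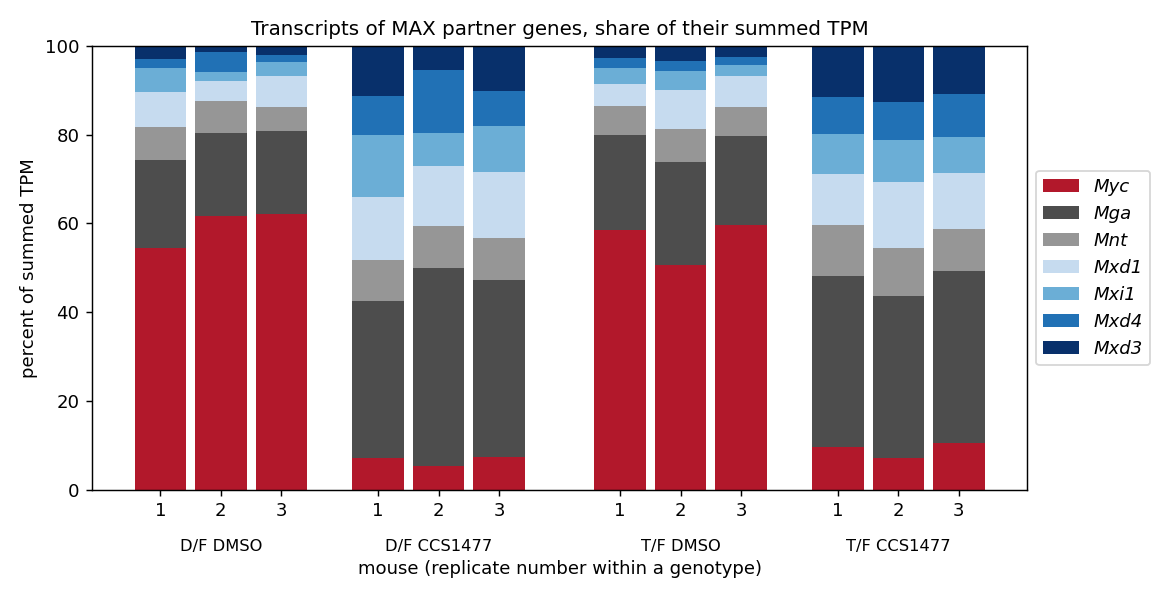
Share of the summed TPM of 7 genes for MAX partners (y axis, percent) in each of the 12 libraries, by treatment and mouse. *Myc* (red) covers 50.7 to 62.1% of the bar with DMSO and 5.45 to 10.4% with CCS1477, and *Mga* (dark grey) is the largest part with CCS1477.

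The genotypes were then compared. For the difference between the *D/F* and *T/F* responses, 0 of the 10 genes were called in limma, as were 0 of all 15583 genes tested (0%), while 659 genes (4.23%) and 1 network gene, *Myc*, had an unadjusted p under 0.05. The fall of *Myc* was smaller in *T/F* by 0.77 on the log2 scale (95% interval 0.19 to 1.35, unadjusted p = 0.0146, adjusted p = 1.00 from limma). Between genotypes within DMSO and within CCS1477, 0 of the 10 genes were called in limma (0.0328% and 0.0329% of all genes were), and 0 had an unadjusted p under 0.05, where 6.15% and 10.8% of all genes had. *Myc* was 0.48 lower on the log2 scale in *T/F* than in *D/F* with DMSO (adjusted p = 0.811 from limma) and 0.29 higher with CCS1477 (adjusted p = 0.558).

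Relatives of the network outside the 10 genes were measured too. *Mycn*, which encodes the MYC paralog N-MYC, was 20.2, 46.3 and 24.3 TPM with DMSO and 5.72, 10.5 and 6.14 TPM with CCS1477 in *D/F*, and 14.2, 9.12 and 16.5 against 3.03, 1.72 and 3.18 TPM in *T/F*. It fell without overlap, by 1.84 in *D/F* and by 1.96 in *T/F* on the log2 scale (adjusted p = 0.0279 and 0.00253 from limma). *Mlxipl*, the paralog of *Mlxip* that encodes ChREBP, rose from 1.77 ± 0.295 to 6.22 ± 3.00 TPM in *D/F* (SD, n = 3; log2 change 1.31, adjusted p = 0.0385 from limma) and from 1.33 ± 0.0317 to 3.11 ± 0.391 TPM in *T/F* (0.82, adjusted p = 0.00120). *Mycl* was low, between 0.293 and 4.28 TPM, with log2 changes of -1.16 and -0.79 (adjusted p = 0.159 and 0.0510 from limma). *Bmyc*, a short MYC relative, lay between 16.7 and 23.9 TPM in all libraries, and was called only in *T/F* with the mouse as a block (log2 change 0.21, adjusted p = 0.0419 from limma, and 0.107 without the block). Counting *Mycn* and *Mycl* with *Myc*, a choice made after seeing the data, their share of partner TPM was 61.4% ± 4.47 and 9.19% ± 0.786 in *D/F* cells and 57.7% ± 4.96 and 10.4% ± 2.12 in *T/F* (SD, n = 3).

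The genes that work with or downstream of the network were grouped in lists. As background for the counts, 5.14% of all genes were called higher and 6.51% lower in *D/F* cells, against 25.8% and 17.6% in *T/F* cells. Under the block these were 21.4% and 18% for *D/F*, and 31.2% and 22.9% for *T/F*. Of 45 genes that MYC activates, 15 were called lower and 0 higher in *D/F*, and 37 lower and 1 higher in *T/F*, with medians of -0.91 and -0.88 beside 0.06 and 0.07 for all genes. Under the block, 32 were lower and 1 higher in *D/F*. *Srm*, which encodes spermidine synthase, fell from 317 ± 125 to 43.5 ± 29.5 TPM in *D/F* cells and from 317 ± 19.0 to 53.3 ± 2.65 TPM in *T/F* (SD, n = 3; adjusted p = 0.0279 and 0.000242 from limma). *Gnl3*, a nucleolar GTPase, fell from 141 ± 17.3 to 21.4 ± 4.45 TPM and from 136 ± 5.70 to 22.8 ± 3.79 TPM (SD, n = 3; adjusted p = 0.00350 and 0.000311). This list overlaps one already examined on these libraries and is no independent evidence of direction.

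Of 11 genes that MYC represses, 2 were called higher and 2 lower in *D/F*, and 4 higher and 2 lower in *T/F* (medians 0.62 and 0.37), with 7 higher in *D/F* with the mouse as a block. *Tob1*, an antiproliferative gene, rose from 9.55 ± 3.24 to 47.9 ± 8.13 TPM in *D/F* cells and from 8.23 ± 2.21 to 28.4 ± 3.48 TPM in *T/F* (SD, n = 3). *Cdkn1b*, which encodes the cell cycle inhibitor p27, rose by 0.90 and by 0.97 on the log2 scale. The genes that fell were *Cebpa*, the myeloid transcription factor, by 1.27 and by 1.13, and *Ndrg2*, by 1.32 and by 0.92, which is against the direction in the list's name.

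Among 18 MYC coactivators, 1 was called lower and 0 higher in *D/F*, and 8 were higher and 4 lower in *T/F*, against 6 higher and 4 lower in *D/F* with the mouse as a block (medians 0.17 and 0.11). The acetyltransferase gene *Kat2a* (GCN5) fell from 66.6 ± 6.24 to 25.2 ± 5.40 TPM in *D/F* cells and from 62.3 ± 6.15 to 31.8 ± 3.20 TPM in *T/F* (SD, n = 3; adjusted p = 0.0124 and 0.00165 from limma). Of 19 genes for MYC protein turnover, 2 were higher and 1 lower in *D/F* (7 and 1 with the block). In *T/F* 9 were higher and 2 lower (12 and 1 with the block), and the medians were 0.28 and 0.27. *Gsk3b*, which encodes a kinase that marks MYC for degradation, rose by 0.73 and by 0.71 on the log2 scale, and the ubiquitin ligase gene *Stub1* rose by 0.84 and by 0.54. *Usp36*, a nucleolar deubiquitinase that stabilises MYC, fell from 46.1 ± 6.88 to 17.99 ± 3.28 TPM and from 42.9 ± 5.85 to 17.7 ± 2.92 TPM (SD, n = 3).

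The MXD proteins and MNT act through the SIN3 and NCoR corepressors. Of 16 genes of these complexes, 2 were called higher and 0 lower in *D/F* (7 and 0 with the mouse as a block), 4 having lower values that did not pass, and 9 were higher and 1 lower in *T/F*, with medians of 0.24 and 0.26 beside 0.06 and 0.07 for all genes. *Ing1* rose from 21.0 ± 2.85 to 38.0 ± 0.790 TPM in *D/F* cells and from 20.6 ± 2.51 to 32.2 ± 0.740 TPM in *T/F*, and *Ing2* from 8.64 ± 0.884 to 13.6 ± 0.226 and from 8.22 ± 0.643 to 12.01 ± 1.49 TPM (SD, n = 3). Both encode readers of methylated histone H3 in SIN3 complexes. Of 12 genes of the MGA complex, a Polycomb complex, 1 was higher and 0 lower in *D/F* (3 and 4 with the block), and 3 were higher and 4 lower in *T/F* (medians -0.28 and -0.08). *Rybp*, a component of Polycomb complexes, rose by 0.92 and by 0.46 on the log2 scale.

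Of 10 genes that respond to MLX with MLXIP or to glucose, 1 was higher and 2 lower in *D/F* (2 and 2 with the mouse as a block). In *T/F* 2 were higher and 2 lower (2 and 5 with the block), and the medians were -0.06 and -0.30. *Arrdc3*, an arrestin-domain gene, rose from 18.2 ± 0.358 to 58.9 ± 7.67 TPM in *D/F* cells and from 12.9 ± 0.468 to 31.9 ± 6.66 TPM in *T/F* (SD, n = 3). *G6pc3*, a glucose-6-phosphatase gene, fell from 76.9 ± 9.12 to 26.9 ± 3.84 TPM and from 60.7 ± 8.27 to 29.3 ± 2.49 TPM (SD, n = 3). *Txnip*, a widely used target of this pair and named here after its values were seen, was 119 and 472 TPM in *D/F* cells and 74.1 and 267 TPM in *T/F* by group mean, with an adjusted p from limma of 0.0695 (0.00429 with the block) for the former and 0.00120 for the latter.

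**Figure D4:**
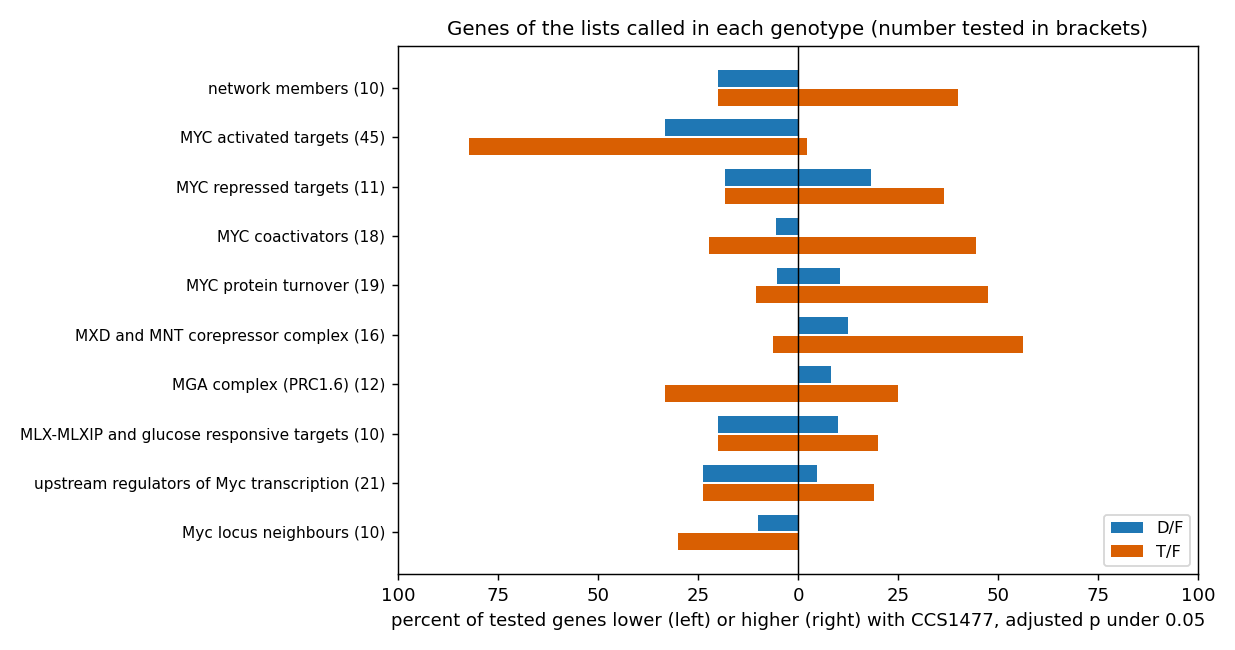
Percent of the tested genes of each list called higher (right of 0) or lower (left of 0) with CCS1477 at an adjusted p under 0.05 in limma, *D/F* in blue and *T/F* in orange, with the number of genes tested in brackets. The MYC activated list lies almost wholly on the left, with 15 of 45 genes in *D/F* cells and 37 of 45 in *T/F*, and the corepressor list lies mostly on the right.

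A further list held factors that act on *Myc* transcription. Of its 21 genes, 1 was called higher and 5 lower in *D/F* (4 and 7 with the mouse as a block), and 4 higher and 5 lower in *T/F* (medians -0.13 and 0.02). *Myb*, a progenitor transcription factor, fell from 345 ± 55.2 to 68.1 ± 10.5 TPM in *D/F* cells and from 239 ± 18.5 to 78.7 ± 14.3 TPM in *T/F*, and *Lmo2*, a bridging factor, from 333 ± 135 to 60.7 ± 11.2 and from 271 ± 38.3 to 89.6 ± 1.63 TPM (SD, n = 3). *Ep300*, which encodes a target of the compound, rose from 58.8 ± 4.596 to 95.7 ± 1.67 TPM and from 60.1 ± 3.54 to 106 ± 4.69 TPM (SD, n = 3).

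On chromosome 15, 10 protein-coding genes that lie at least in part within 3 Mb of *Myc* were measured, *Myc* included. The nearest on either side were *Fam84b*, at -1131.6 kb, and *Fam49b*, at 2075 kb from the start of *Myc*. *Fam84b* had a log2 change of -1.07 in *D/F* (adjusted p = 0.0844 from limma, and 0.0167 with the mouse as a block) and of -0.77 in *T/F* (adjusted p = 0.128, and 0.00508 with the block), and it passed over both genotypes (-0.92, adjusted p = 0.0107). *Fam49b* had changes of -0.37 and -0.12 (adjusted p = 0.453 and 0.196 from limma), the first with 0.0337 under the block. Of the 10 genes, *Myc* alone was called in *D/F* in limma (4 were with the mouse as a block), and 3 in *T/F*, *Myc*, *Trib1*, which encodes a pseudokinase, with -0.93 (adjusted p = 0.0133) and *Asap1* with -0.53 (adjusted p = 0.0247, and 0.0563 with the block). No neighbour changed by as much as *Myc* in either genotype. The long non-coding gene *Pvt1*, next to *Myc*, was not found in the expression table. Of 81 annotated genes in this window, 18 of them protein-coding, only these 10 were in that table.

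**Figure D5:**
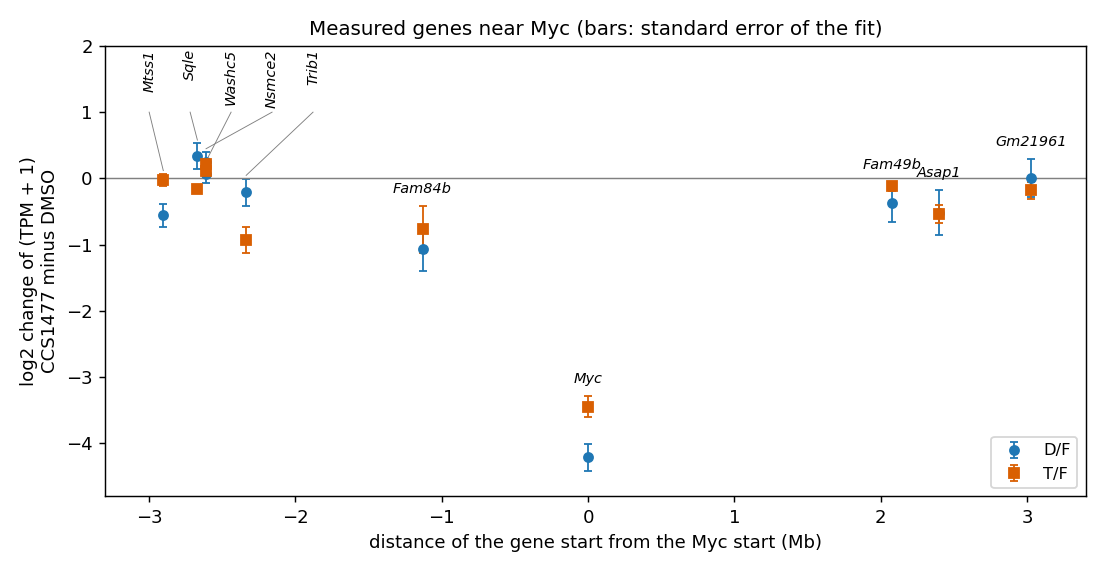
Log2 change of (TPM + 1) with CCS1477 (y axis) of the 10 measured genes around *Myc* against the distance of their start from the *Myc* start in Mb (x axis), *D/F* as blue circles and *T/F* as orange squares, with bars for the standard error. *Myc* lies at -4.21 and -3.45 and the neighbours lie between -1.07 and 0.34.

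Other genes followed the members closely across the 12 libraries, which share the treatment as a source of variation. By Pearson's r of log2(TPM + 1), over genes averaging 5 TPM or more, those most like *Myc* were *Ubash3a* (0.998), *Dkc1* (0.995), *Ampd2* (0.994), *Ppan* (0.992) and *H13* (0.992). *Dkc1* and *Ppan* act in ribosomal RNA modification and ribosome assembly, and both are on the list of MYC activated genes. The most similar gene was *2810004N23Rik* for *Max* (0.992), *Map2k6* for *Mxd3* (0.987), *Slc50a1* for *Mxd4* (0.989), *Rab6a* for *Mxi1* (0.960) and *Sqstm1* for *Mlxip* (0.983). It was *Mrpl30* for *Mlx* (0.9702), ENSMUSG00000091964 for *Mga* (0.963), *Rnf130* for *Mnt* (0.938) and *Fam57a* for *Mxd1* (0.859). *Mxd1* thus had the lowest of these correlations.

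The promoter sequences of RefSeq, 250 bases before to 50 after a transcript start in GRCm38.p6, were searched for the E-box CACGTG, which reads the same on both strands. A promoter was found for 9 of the 10 genes and not for *Myc*. These 9 genes have 11 promoter windows, 3 of them of *Mxi1*. The E-box occurred in 4 of the genes, *Max*, *Mlx*, *Mnt* and *Mxd4*, against 7.15% of 32851 promoters of all genes. That share counts promoters rather than genes, whether or not the gene was measured here, so the counts are on unlike terms. The difference was not tested. They are shown because MYC, MAX and their partners bind this sequence, in 30 bases of the gene's strand with the E-box in capitals.
Max, chr12:76962234-76962263, minus strand: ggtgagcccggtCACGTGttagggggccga
Mlx, chr11:101087238-101087267, plus strand: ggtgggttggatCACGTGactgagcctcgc
Mnt, chr11:74830789-74830818, plus strand: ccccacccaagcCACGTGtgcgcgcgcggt
Mxd4, chr5:34187912-34187941, minus strand: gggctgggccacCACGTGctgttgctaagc
The E-box begins 3 bases before the transcript start in *Max*, 40 in *Mlx*, 123 in *Mnt* and 219 in *Mxd4*. Of the genes that hold it, *Max*, *Mlx* and *Mnt* were lower with CCS1477 in all 6 mice and *Mxd4* was higher in all 6. *Mxd3*, *Mxi1* and *Mlxip*, which were also higher in all 6, have no such sequence in their windows. Among the other motifs, searched on both strands, CACGCG was found in *Mga* (9.27% of all promoters), TGTTTAC in *Mxi1* (3.65%), GGAAGT in *Mxd1* (23.8%), TGACGT in *Mga* and *Mlxip* (7.51%) and CCAAT in *Mlx*, *Mlxip*, *Mxd1* and *Mxd4* (37.4%), and TTCNNNGAA (8.3%) was found in none of the 9. A match is a description of the letters only.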

How the data were processed

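RNA-seq was analysed from 12 libraries of 6 mice. The authors deposited TPM per gene, labelled as kallisto output on mm10 in the submitters' processing notes, and the study names AltAnalyze with its version. The kallisto version, annotation and strand setting are not given in the sources used here. Since TPM holds no read counts, depth is unknown. No gene peaks below 2.00 TPM, and libraries sum to 914204 to 931697 TPM. GENCODE vM21 gave symbols for 15252 genes, and genes were placed on GRCm38.

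Log2(TPM + 1) of genes averaging 1 TPM or more in a compared group was fitted with limma 3.58.1 in R 4.3.3 (eBayes without a trend, two-sided, Benjamini-Hochberg over all genes, called at an adjusted p under 0.05). Exact permutation tests used Python 3.11.15. The fits were tested on simulated data. Libraries with the same replicate number come from 1 mouse by the labels. Deviations from group means correlated at 0.354 to 0.669 within mice and at most 0.141 between mice, so the numbers pair the samples, and the mouse as a block is given where it changes the call of a member or moves a count of calls by over 1.5 times. Members and lists were chosen with earlier results of these data known. From each list, the 2 largest rises and falls called in both genotypes were named, by the smaller change, plus the genes most correlated with a member and the nearest neighbours of *Myc*. Alternatives were another pseudocount, filters, scalings, a trend, a shared fit, other partner sets, and leaving out each mouse.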

Additional observations from a re-analysis of the deposited data

Results flagged for a closer look

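*Bmyc* moved in opposite directions in the 2 genotypes in every mouse. It was picked for this pattern among the 10 network genes and 4 measured relatives. The interval and p of the difference therefore rest on the values that selected *Bmyc*. How many of all genes show the pattern was not counted. It was lower with CCS1477 in 3 of 3 *D/F* mice, with ratios of 0.946, 0.770 and 0.984 to the DMSO cells, and higher in 3 of 3 *T/F* mice, with ratios of 1.22, 1.20 and 1.09. Its group means were 21.5 ± 2.13 and 19.2 ± 1.16 TPM in *D/F* and 18.5 ± 1.80 and 21.6 ± 1.16 TPM in *T/F* (SD, n = 3). The difference between the responses was 0.37 on the log2 scale (95% interval 0.02 to 0.71, unadjusted p = 0.0387, adjusted p = 1.00 from limma), so it failed the correction over all genes. Within genotypes, limma gave an adjusted p of 0.530 for *D/F* cells and 0.107 for *T/F* cells, and of 0.318 and 0.0419 with the mouse as a block. Dose and genotype cannot be told apart here.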

How the results depend on the processing

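*Myc*, *Max*, *Mxd3*, *Mxd4*, *Mxi1*, *Mnt*, *Mlx* and *Mlxip* kept their direction with CCS1477 under every alternative run in *D/F*, *T/F* and both genotypes. Of 409 single-gene comparisons with an alternative, 349 kept direction and call, 25 lost the call, 23 gained it and 12 changed sign, all of *Mxd1* and *Mga*, which were called nowhere. For *Mxd1*, leaving out 1 mouse gave -0.11 to 0.15 in *D/F* (-0.11 also with the block and without *D/F* mouse 2), -0.10 to 0.19 in *T/F* and -0.00919 to 0.11 over both (-0.00394 with the block and without *D/F* mouse 2), and rescaling to the median gene gave -0.012 in *T/F* and -0.0045 over both. For *Mga*, quantile normalization gave 0.070, 0.014 and 0.042 in *D/F*, *T/F* and both, and leaving out 1 *T/F* mouse gave -0.069 to 0.0018. With the mouse as a replicate block, members called rose from 2 to 7 in *D/F* (6 without *D/F* mouse 2, chosen after seeing the data), and a fit of the 4 groups together called 4 in *D/F* and 3 in *T/F*. Leaving out 1 mouse gave 0 to 5 members in *D/F* (5 without mouse 2, 0 without mouse 1 or 3), 4 to 5 in *T/F* and 3 to 8 over both (3 without *T/F* mouse 3). Of all genes in *D/F*, 1805 were called, 0 without mouse 1 or 3, 3739 without mouse 2, 6098 with the block, 4940 in the shared fit and 2839 after quantile normalization, which moved the share called higher from 44.1% to 54.6%. In *T/F* 6620 were called, 3713 in the shared fit and 3192 without mouse 2 at the lowest. *Mnt* passed in *D/F* after rescaling (adjusted p = 0.0466 from limma). Against *Mxd1*, *Mxd3*, *Mxd4* and *Mxi1* alone, the *Myc* share changed by -66.9 points in *D/F* and by -60.7 points in *T/F* (-52.8 and -47.2 with all partners), and the summed partners differed by 35.7 TPM in *D/F* (16.8 with all, 7.89 after rescaling, against 31.6 and 19.6 in *T/F*); the first set leaves out *Mnt* and *Mga* by construction, and the other causes were not tested. For the response and for the genotypes in DMSO and in CCS1477, 0 of 117 alternatives in each passed for the 9 genes other than *Myc*, and 20, 4 and 6 changed sign, apart from the 12 above. With 3 mice a group and unknown depth, the precision of low values cannot be given.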
